A study of Mus musculus with 5 samples.

Results

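Chemokines are small secreted or membrane-tethered proteins that draw leukocytes along a gradient, and chemokine receptors are the G protein-coupled receptors through which leukocytes read them. The genes described here are the 58 rows, of 23997 in a whole-kidney expression table, whose symbols begin with Ccl, Ccr, Cxcl, Cxcr, Xcl or Xcr and a number, or with Cx3c. They comprise 39 ligands and 19 receptors, and every one was kept, however low its level. The libraries were 2 labelled Pkd1 knockout (knockout 0 and 1; their titles read SKO, the design text reads PkdTKO, and neither name is explained) and 3 labelled uninduced control (control 0, 1 and 2), all from kidneys of mice aged 8 weeks. Pkd1 encodes polycystin-1, whose loss gives cystic kidneys, and the series asked how metalloproteinases take part in basement membrane remodelling and tubule dilation. The labels name neither the promoter or agent behind the induction, nor the strain, nor the alleles that controls and knockouts may share. They also do not say whether each library is a separate animal, so each p-value below measures only the spread between these libraries.

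Chemokines are sorted by the spacing of their first conserved cysteines into CC, CXC, C and CX3C classes, and most receptors answer to several ligands of a class. Inflammatory chemokines such as Ccl2, Cxcl1 and Cxcl10 are made on demand by injured or stimulated cells, whereas homeostatic ones such as Cxcl12 and Ccl25 are made steadily. In the kidney, tubule epithelium, endothelium, fibroblasts and resident macrophages can all make inflammatory chemokines, and monocytes, macrophages, dendritic cells, lymphocytes and neutrophils carry the receptors.

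The stretches of DNA just upstream of 7 of the genes are shown because those genes, chosen after their values were seen, include the ones that passed the test with both knockout libraries and the ones on which other results below turn. Sequences are RefSeq promoters of build GRCm38.p6, printed 5′ to 3′ on the strand of the gene and ending at the base before its RefSeq start. The GENCODE M21 annotation places some starts farther upstream. Most of the Ccl19 stretch, with its capitals, lies inside the GENCODE bounds of that gene (chr4:42754525-42756577), so it need not be promoter sequence. The last bases of the Cxcl1 and Cxcl2 stretches lie inside their GENCODE bounds too. Capitals mark matches, on either strand, to the NF-κB site κB (searched by its 10-letter consensus) or to the interferon-stimulated response element core GAAA, any 2 bases, GAAA. Overlapping κB matches on the 2 strands were merged into 1 run of capitals. Cxcl1 (chr5:90891125-90891244, plus strand), Cxcl2 (chr5:90903779-90903898, plus strand) and Ccl20 (chr1:83116646-83116765, plus strand) reached at least 1 FPKM in knockout 0 and stayed lower than that in every control. The same held for Ccl2, Ccl3, Ccl4, Ccl7, Ccl9, Ccl11, Ccl17, Ccl22, Cxcl17, Ccr1, Cxcr3, Cxcr6 and Xcl1, which are not shown. Of these only Ccl9 and Ccr1 are among the members with a κB match named below, and not every member had a promoter to search. Cxcl10 (chr5:92348890-92349109, minus strand) holds both motifs, and Ccl19 (chr4:42756366-42756585, minus strand) and Ccl8 (chr11:82115065-82115184, plus strand) were the genes that passed with both knockout libraries. Cxcl12 (chr6:117168415-117168534, plus strand) was the member farthest below the controls in knockout 0.
Cxcl1: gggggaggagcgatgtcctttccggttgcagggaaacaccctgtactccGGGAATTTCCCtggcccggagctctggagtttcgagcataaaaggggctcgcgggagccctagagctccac
Cxcl2: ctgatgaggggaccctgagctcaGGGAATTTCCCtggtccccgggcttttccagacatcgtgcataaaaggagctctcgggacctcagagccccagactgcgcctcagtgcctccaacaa
Ccl20: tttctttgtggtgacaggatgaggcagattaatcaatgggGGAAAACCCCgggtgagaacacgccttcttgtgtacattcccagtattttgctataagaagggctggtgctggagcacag
Cxcl10: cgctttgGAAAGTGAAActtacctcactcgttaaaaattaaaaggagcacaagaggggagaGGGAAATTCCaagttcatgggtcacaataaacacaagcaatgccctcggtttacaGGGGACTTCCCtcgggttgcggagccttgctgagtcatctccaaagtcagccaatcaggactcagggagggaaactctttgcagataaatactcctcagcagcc
Ccl19: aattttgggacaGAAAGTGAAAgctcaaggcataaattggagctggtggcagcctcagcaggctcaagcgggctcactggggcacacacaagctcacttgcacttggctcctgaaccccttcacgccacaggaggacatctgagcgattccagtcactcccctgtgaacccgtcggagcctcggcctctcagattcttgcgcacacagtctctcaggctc
Ccl8: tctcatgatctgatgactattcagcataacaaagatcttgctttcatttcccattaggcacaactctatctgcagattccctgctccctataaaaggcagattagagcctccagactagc
Cxcl12: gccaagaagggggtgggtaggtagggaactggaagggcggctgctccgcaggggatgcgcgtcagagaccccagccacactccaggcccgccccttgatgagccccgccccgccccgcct

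Each printed stretch is the part of a 250-base upstream window nearest the start. Over the whole 250-base windows a κB match was found in 10 of the 49 promoters of 42 matched members (20.4%), against 2382 of all 32851 mouse promoters (7.25%). The members with a match were Ccl1, Ccl9, Ccl20, Cxcl1, Cxcl2, Cxcl3, Cxcl10, Ccr1, Ccr3 and Ccr6. Cxcl1, Cxcl2 and Cxcl3, neighbours on chromosome 5, carried the same 10 letters, gggaatttcc, beginning at bases -71, -97 and -73 from the start. The interferon element core was found in 3 member promoters (6.12%; Ccl19, Cxcl10 and Cxcl14), against 2.98% of all promoters. The STAT motif GAS (TTC, any 3 bases, GAA) was found in 8.16% of member promoters against 7.02% of all, and the AP-1 motif TGANTCA in 12.2% against 6.75%. No printed stretch holds a GAS match, and only that of Cxcl10 holds an AP-1 match, in lower case between its second κB run and the start. The whole windows of Ccl8 and Cxcl12 hold no match to κB or the interferon element core, which says only that these letters are not in these windows.

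Levels are FPKM (sequenced fragments for each kilobase of transcript, relative to the library's mapped total), so they are scaled for length and can be set side by side between genes. Folds are a knockout library's FPKM over the mean of the 3 controls. Tests were run by limma on log2(FPKM + 1) over the 12640 rows with a mean of at least 1 FPKM, Benjamini-Hochberg adjusted over all of them with a threshold of 0.05. The log2 differences are on that scale and understate the change of low genes. FPKM summed over all rows came to 493226 and 462814 in knockout 0 and 1, against 504914 to 507053 in the controls. Placements of a knockout library only just outside the controls, such as those of Cxcl12, Cx3cl1 and Ccl27a below, therefore depend on the scaling. The knockout libraries did not look alike in several respects outside these genes. Pkd1 itself had 2.72 and 3.60 FPKM in knockout 0 and 1, against 3.22, 3.51 and 3.49 FPKM in control 0, 1 and 2, and was not called (adjusted p = 0.646 by limma). A Pkd1 deletion need not lower the transcript's total, so this value does not test the label. The X-inactivation RNA Xist had 30.8 and 80.3 FPKM in knockout 0 and 1, against 0.0222 to 0.0275 FPKM in the controls. The Y-linked Ddx3y had 7.30 and 0.00194 FPKM in knockout 0 and 1, against 17.8 to 18.6 FPKM in the controls, so sex-chromosome RNA differed both between the groups and between the knockout libraries, and its part in the results was not tested. The injury marker Havcr1 had 137 FPKM in knockout 0 and 0.593 FPKM in knockout 1, against 0.718 to 1.12 FPKM in the controls. For this reason each knockout library was also set against the controls alone, in a fit that assumes the lone library varies as the controls do and compares libraries, not conditions. Both such comparisons share the same 3 controls.

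Summed over all 58 genes, chemokine and receptor transcripts came to 359 FPKM in knockout 0 and 203 FPKM in knockout 1, against 190, 178 and 177 FPKM in control 0, 1 and 2. Ligands made up most of each sum, with 329 and 189 FPKM in the knockouts and 168 to 180 FPKM in the controls. Receptors summed to 30.1 FPKM in knockout 0 and 13.9 FPKM in knockout 1, against 10.03, 9.20 and 9.58 FPKM in control 0, 1 and 2. Knockout 0 lay above every control for 46 of the 58 genes (29.7% of all 23997 rows) and below every control for 3 (30.7%), whereas knockout 1 lay above for 37 (32% of all rows) and below for 8 (25.7%). The median log2 difference from the controls over the 58 was 0.59 in knockout 0 and 0.12 in knockout 1, beside 0 and 0 over all rows of the table. Over the 18 members with a control mean of at least 1 FPKM it was 1.19 in knockout 0 and 0.28 in knockout 1. All rows with such a control mean had medians of -0.05 and -0.003. In whole-kidney RNA, more cells of a type and more RNA per cell cannot be told apart.

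With both knockout libraries, Ccl8 and Ccl19 rose, and these were the only 2 of the 25 members tested to do so by limma at an adjusted p under 0.05, against 2.73% of all rows tested. Of the 25, 18 had a control mean of at least 1 FPKM and 7 entered only through their knockout values, among them Ccl2, Ccl4, Ccl9, Ccl12, Ccl17 and Cxcl1. The 25 are therefore not a fair sample of the 58, and results for those 7 carry that selection. No member fell by that limma fit (0 of 25), against 3.62% of all rows. At an unadjusted p under 0.05 there were 12 of 25 higher (12.5% of all rows) and 1 lower, Ccl25 (16.6% of all rows). With no filter on low values, limma called 0 of the 58 higher (0.588% of all 23997 rows) and 0 lower (0.442%). At an unadjusted p under 0.05 that unfiltered fit gave 13 higher (9.19% of rows) and 1 lower (10.2% of rows).

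Set against the controls alone, knockout 0 gave many more calls. Of the 25 members, 18 were higher (11.5% of all rows) and 1, Cxcl12, was lower (9.09% of all rows). Among the 18 members chosen without regard to the knockouts, by a control mean of at least 1 FPKM, 11 were higher, against 9.98% of rows chosen in the same way, and 1 was lower, against 9.3%. The unfiltered fit for knockout 0 called 27 of 58 higher (6.92% of rows) and 1 lower (2.21% of rows). Knockout 1 alone gave 2 higher, Ccl19 and Cx3cr1 (4.09% of all rows), and 1 lower, Ccl25 (4.25% of all rows).

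Counting only where libraries lie, knockout 0 was above every control for 14 of those 18 members (32.7% of the 12400 rows with a control mean of at least 1 FPKM) and below for 3 (45.1%). Knockout 1 was above every control for 11 of the 18 (37.2% of rows) and below for 5 (39.4% of rows). Both knockout libraries were above every control for 10 of the 18 (20.6% of rows) and below for 3 (27% of rows), namely Ccl25, Ccl27a and Cxcl12. The plot of these shares puts the members beside all rows.

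**Figure D1:**
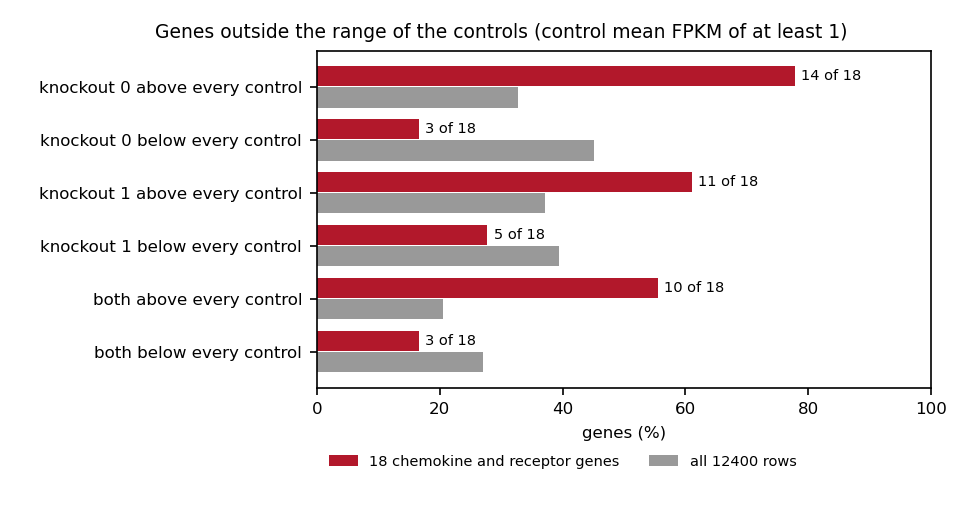
Share of genes (%, horizontal axis) in which a knockout library, or both, lay above or below all 3 controls; red bars are the 18 chemokine and receptor genes with a control mean of at least 1 FPKM, with their counts, and grey bars are all 12400 such rows. Knockout 0 stood above every control for 14 of 18 members against 32.7% of rows, and both libraries did for 10 of 18 against 20.6%.

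The plot of differences by gene orders the tested members by knockout 0.

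**Figure D2:**
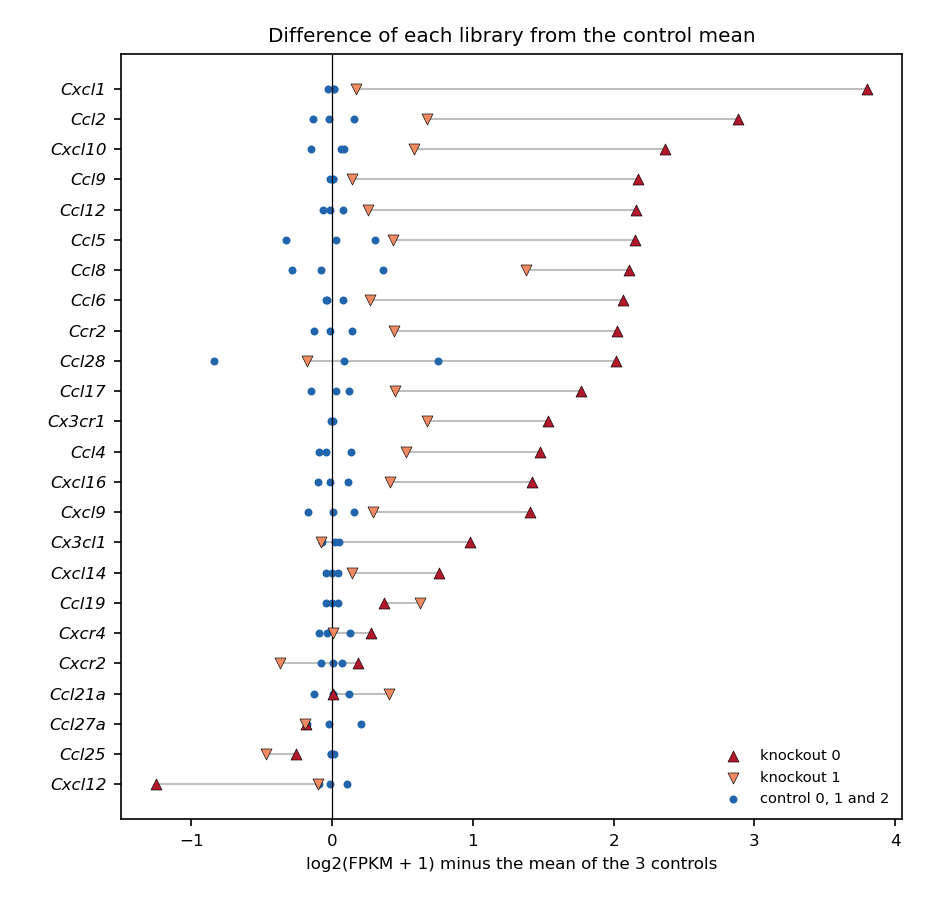
Difference of each library from the mean of the 3 controls, on log2(FPKM + 1), for the members tested, 1 left out; triangles are the knockout libraries and blue points the controls. Knockout 0 ranged from 3.80 for Cxcl1 to -1.25 for Cxcl12, knockout 1 from 1.38 for Ccl8 to -0.47 for Ccl25, and Ccl19, Ccl21a, Ccl25, Ccl27a and Cxcr2 were farther from the controls in knockout 1.

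The monocyte chemoattractant proteins Ccl2, Ccl7, Ccl8 and Ccl12, which attract monocytes and other leukocytes, Ccl2 through Ccr2, exceeded each control value in knockout 0 and in knockout 1 alike. Over all rows of the table, 29.7% did so in knockout 0 and 32% in knockout 1. Ccl8 had 10.6 FPKM in knockout 0 and 5.99 FPKM in knockout 1, against 2.47, 1.21 and 1.54 FPKM in control 0, 1 and 2. The groups did not overlap, and the fitted log2 difference was 1.74 (SE 0.283, adjusted p = 0.0358 by limma). This gene lies at chr11:82115185-82116799 on the plus strand (mm10, GENCODE M21), inside a run of CC ligand genes. Its call with both libraries was lost when knockout 0 was left out (log2 difference 1.38, adjusted p = 0.0541 by limma) and when control 0, 1 or 2 was left out (adjusted p = 0.122, 0.0963 and 0.184 by limma). Over all 16 alternatives its adjusted p ran from 0.0140 to 0.184.

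Ccl2, the archetypal monocyte attractant, had 11.8 FPKM in knockout 0 and 1.77 FPKM in knockout 1, against 0.930, 0.713 and 0.583 FPKM in the controls. Both knockouts were above the controls, by 15.9-fold and 2.38-fold, yet they were so far apart that the fitted difference of 1.78 had an SE of 0.624 (adjusted p = 0.138 by limma). Ccl12, a mouse relative of Ccl2, had 7.55 FPKM in knockout 0 and 1.28 FPKM in knockout 1, against 0.824, 1.02 and 0.896 FPKM in the controls. Ccl7 had 2.72 FPKM in knockout 0 and 0.298 FPKM in knockout 1, against 0.208, 0.240 and 0.0549 FPKM in the controls. In all 3 genes knockout 0 stood alone at the top while knockout 1 was only slightly above the highest control for Ccl7 and Ccl12. With knockout 0 alone the log2 difference was 2.88 for Ccl2 and 2.16 for Ccl12, and both entered the fit only through their knockout values. Together the 4 genes summed to 32.7 and 9.33 FPKM in knockout 0 and 1, against 3.08 to 4.43 FPKM in the controls, and Ccl8 made the largest share of the sum in knockout 1 whereas Ccl2 did in knockout 0.

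The inflammatory CC ligands Ccl3, Ccl4, Ccl5, Ccl6 and Ccl9, which act on macrophages and lymphocytes, followed the same order. Ccl5, made by T cells, NK cells and stimulated epithelium, had 16.3 FPKM in knockout 0 and 4.26 FPKM in knockout 1, against 3.82, 2.97 and 2.10 FPKM in the controls. Ccl6, a myeloid ligand of Ccr1, had 11.6 FPKM in knockout 0 and 2.62 FPKM in knockout 1, against 1.92, 2.17 and 1.93 FPKM in the controls. Knockout 1 was thus a little above the top control for both, and knockout 0 was 5.50-fold and 5.77-fold above the control mean. Ccl9, another Ccr1 ligand of mice, had 5.59 FPKM in knockout 0 and 0.618 FPKM in knockout 1, against 0.472, 0.447 and 0.474 FPKM in the controls. Ccl4 had 3.65 FPKM in knockout 0 and 1.41 FPKM in knockout 1, against 0.622, 0.834 and 0.564 FPKM in the controls. Its sister gene Ccl3, a ligand of Ccr1, had 1.12 FPKM in knockout 0 and 0.597 FPKM in knockout 1, against 0.348, 0.445 and 0.237 FPKM in the controls. All 5 were above every control in both knockout libraries, as were 29.7% of all rows of the table in knockout 0 and 32% in knockout 1. Of the 5, 4 were tested, and none passed with both libraries (Ccl4 came nearest, adjusted p = 0.0984 by limma). With knockout 0 alone the log2 differences of the 4 tested ran from 1.48 for Ccl4 to 2.17 for Ccl9. Of the 4, Ccl4 and Ccl9 entered the fit only through their knockout values.

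Ccl17 and Ccl22, dendritic cell and macrophage ligands of Ccr4, and Ccl11 (eotaxin), a Ccr3 ligand that draws eosinophils, were low in every library. Ccl17 had 4.10 FPKM in knockout 0 and 1.04 FPKM in knockout 1, against 0.632, 0.356 and 0.527 FPKM in the controls. Ccl22 had 1.27 FPKM in knockout 0 and 0.423 FPKM in knockout 1, against 0.355, 0.190 and 0.279 FPKM in the controls. Ccl11 had 1.02 FPKM in knockout 0 and 0.505 FPKM in knockout 1, against 0.266, 0.331 and 0.306 FPKM in the controls. All 3 put knockout 0 first and knockout 1 second, above every control (29.7% and 32% of all rows of the table were above every control in knockout 0 and 1). Only Ccl17 was abundant enough to be tested, and only through its knockout values (log2 difference 1.11, SE 0.387, adjusted p = 0.138 by limma).

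The neutrophil-attracting CXC chemokines, whose ELR motif engages Cxcr2, differed more between the knockout libraries, by the ratio of their summed levels, than any other role group described here. Cxcl1 had 24.5 FPKM in knockout 0 and 1.07 FPKM in knockout 1, against 0.858, 0.806 and 0.853 FPKM in control 0, 1 and 2. Knockout 0 was 29.3-fold above the control mean and knockout 1 was 1.28-fold above it, outside the narrow control range of 0.839 ± 0.0286 FPKM (SD, n = 3). The fit with both libraries gave a log2 difference of 1.98 with an SE of 1.01 (adjusted p = 0.253 by limma), and knockout 0 alone gave 3.80. Cxcl1 entered these fits only through its knockout values. Cxcl2 had 1.98 FPKM in knockout 0 and 0.129 FPKM in knockout 1, against 0.0627 and 0.0690 FPKM in controls 0 and 1, with a listed value of 0 in control 2. Cxcl5, which stayed under 1 FPKM, had 0.735 FPKM in knockout 0 and 0.0380 FPKM in knockout 1, against 0.0349, 0.0604 and 0.0232 FPKM in the controls. Knockout 1 lay above the controls for Cxcl2 and among them for Cxcl5. Their lung relative Cxcl15 and their neighbour Cxcl3 stayed under 0.1 FPKM in every library.

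Summed, the 5 ELR ligands matched by the symbol rule came to 27.3 FPKM in knockout 0 and 1.25 FPKM in knockout 1, against 0.885 to 1.01 FPKM in the controls. Ppbp, left out of that sum by its symbol, had 0.948 FPKM in knockout 0 and 0.196 FPKM in knockout 1, against 0.567, 0.219 and 0.417 FPKM in the controls. Cxcr2, the receptor of the ELR ligands, did not stand in the order of that sum. It had 1.32 FPKM in knockout 0 and 0.578 FPKM in knockout 1, against 1.05, 1.14 and 0.936 FPKM in the controls, so that one knockout library lay above and the other below the controls (log2 difference -0.09, SE 0.191, adjusted p = 0.785 by limma). Cxcr1 was listed at 0 in 4 libraries and at 0.00601 FPKM in control 0. The 9 neutrophil marker genes in the table summed to 2.83 and 2.28 FPKM in the knockouts and to 1.30 to 2.03 FPKM in the controls. The granule genes Elane and Mpo were listed at 0 in every library, and none of the 9 reached the level for the test.

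Ligands of Cxcr3, which interferon-gamma induces and which attract activated T cells and NK cells, were higher in knockout 0. Cxcl10 had 29.1 FPKM in knockout 0 and 7.77 FPKM in knockout 1, against 5.22, 4.28 and 5.13 FPKM in the controls. Cxcl9 had 5.34 FPKM in knockout 0 and 1.93 FPKM in knockout 1, against 1.67, 1.13 and 1.41 FPKM in the controls. Both knockouts were above the controls for these 2 genes, and neither gene passed with both libraries (log2 differences 1.47 and 0.85, SE 0.502 and 0.332, adjusted p = 0.132 and 0.165 by limma). Cxcl11, at under 1 FPKM throughout, had 0.586 FPKM in knockout 0 and 0.227 FPKM in knockout 1, against 0.314, 0.250 and 0.244 FPKM in the controls, with knockout 1 the lowest library. Of the exon bases of Cxcl11, 41.7% also belong to the gene model Gm2673, and the strandedness of the counting is not given in the sources used here, so its values are uncertain. GENCODE M21 types Cxcl11 as a polymorphic pseudogene, and the strain is not labelled, so whether these mice make a working Cxcl11 protein is not known here. Xcl1 (lymphotactin), a product of T and NK cells read by Xcr1, had 1.07 FPKM in knockout 0 and 0.567 FPKM in knockout 1, against 0.620, 0.583 and 0.468 FPKM in the controls, with knockout 1 inside the control range. Xcl1 shares 18.7% of its exon bases with the gene model Gm20743 on the opposite strand, and reads over those bases cannot be told apart without strand.

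**Figure D3:**
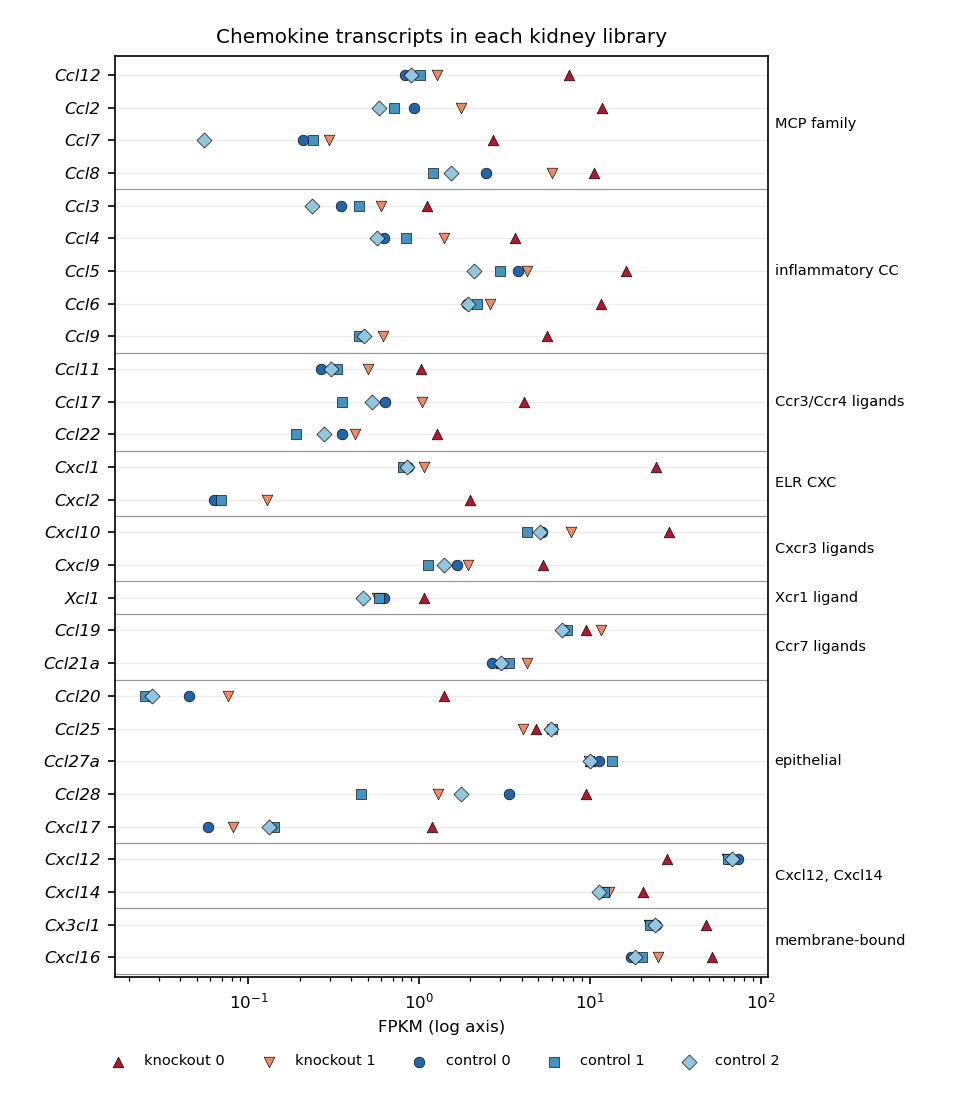
FPKM (log axis) of the 28 ligands that reached 1 FPKM in any library, one symbol per library, grouped by role; a value of 0 (Cxcl2 in control 2) is not drawn. Knockout 0, the red triangle, is far to the right for Cxcl1 (24.5 FPKM) and Ccl2 (11.8 FPKM) and to the left for Cxcl12 (28.4 FPKM), while knockout 1 mostly sits just right of the blue controls.

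Among homeostatic lymphoid chemokines, which guide T cells and dendritic cells through Ccr7, Ccl19 rose and was higher in knockout 1 than in knockout 0. Ccl19 had 9.52 FPKM in knockout 0 and 11.6 FPKM in knockout 1, against 7.15, 7.39 and 6.92 FPKM in control 0, 1 and 2. The groups did not overlap, and the log2 difference was 0.50 (SE 0.0963, adjusted p = 0.0471 by limma), the lower and more even of the 2 passing differences. It also passed with knockout 0 alone (0.37, adjusted p = 0.0333) and with knockout 1 alone (0.63, adjusted p = 0.0251) by limma. The call was lost without control 0, 1 or 2 (adjusted p = 0.178, 0.119 and 0.219 by limma) and, by a small margin, on rescaling to TPM (adjusted p = 0.0529 by limma). Over all 16 alternatives its adjusted p ran from 0.0251 to 0.281.

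Ccl19 lies at chr4:42754525-42756577 on the minus strand (mm10, GENCODE M21), in a region of near-identical copies. Its transcript matched that of Gm2564 at 98.9% identity over 707 bases, so reads could be split between them and its values are uncertain. Ccl21a, a second Ccr7 ligand of the same region, had 3.01 FPKM in knockout 0 and 4.30 FPKM in knockout 1, against 2.67, 3.35 and 3.02 FPKM in the controls. Knockout 0 was inside the control range and knockout 1 above it (log2 difference 0.20, SE 0.150, adjusted p = 0.411 by limma). Its copies Ccl21b and Ccl21c were listed at 0 in every library, so Ccl21a values are uncertain too. Cxcl13, the B cell attractant of follicles, stayed under 1 FPKM but was also highest in knockout 1, at 0.375 FPKM in knockout 0 and 0.618 FPKM in knockout 1, against 0.0810, 0.170 and 0.104 FPKM in the controls. The receptor of Ccl19 and Ccl21a, Ccr7, showed the other order, with 0.781 FPKM in knockout 0 and 0.216 FPKM in knockout 1, against 0.211, 0.144 and 0.172 FPKM in the controls.

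Cxcl12, the stromal ligand of Cxcr4 that holds progenitors and leukocytes in place, was the most abundant chemokine in every control. It had 28.4 FPKM in knockout 0 and 64.0 FPKM in knockout 1, against 74.2, 64.3 and 68.2 FPKM in control 0, 1 and 2. As listed, both knockouts were below the controls, but knockout 1 only just, a placement that depends on the scaling. The knockouts were so far apart that the log2 difference of -0.68 had an SE of 0.328 (adjusted p = 0.237 by limma). Knockout 0 alone passed, with a log2 difference of -1.25 (adjusted p = 0.00548 by limma), and there Cxcl12 was the fourth most abundant ligand, behind Cxcl16, Cx3cl1 and Cxcl10. Its share of all ligand FPKM was 8.62% in knockout 0 and 33.8% in knockout 1, against 38.1% to 41.1% in the controls. The receptor Cxcr4 had 3.49 FPKM in knockout 0 and 2.72 FPKM in knockout 1, against 2.48, 2.61 and 3.05 FPKM in the controls, with knockout 1 inside the control range (log2 difference 0.14, adjusted p = 0.490 by limma). Cxcl14, an epithelial and stromal chemokine, had 20.4 FPKM in knockout 0 and 12.99 FPKM in knockout 1, against 11.6, 12.1 and 11.3 FPKM in the controls. Both knockouts were above its controls, and it did not pass with both libraries (adjusted p = 0.176 by limma).

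The membrane-tethered chemokines are held on a mucin stalk until shed, and both were among the most abundant. Cxcl16, the Cxcr6 ligand, had 51.6 FPKM in knockout 0 and 25.1 FPKM in knockout 1, against 17.4, 20.3 and 18.5 FPKM in the controls. Both knockouts were above the controls (log2 difference 0.91, SE 0.292, adjusted p = 0.117 by limma). Cxcl16 shares 18.3% of its exon bases with Zmynd15 on the opposite strand, and reads over those shared bases cannot be told apart without strand. Zmynd15 had 8.75 and 5.05 FPKM in knockout 0 and 1, against 2.70, 3.47 and 2.85 FPKM in the controls. Cx3cl1 (fractalkine), the ligand of Cx3cr1, had 47.7 FPKM in knockout 0 and 22.4 FPKM in knockout 1, against 24.6, 22.6 and 24.1 FPKM in the controls. As listed, the knockouts lay on opposite sides, knockout 0 at 2.01-fold and knockout 1 at 0.942-fold the control mean (adjusted p = 0.373 by limma with both). The place of knockout 1 below the controls depends on the scaling.

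Epithelial chemokines did not share a direction. Ccl25, best known from thymus and small intestine as the ligand of Ccr9, had 4.85 FPKM in knockout 0 and 4.05 FPKM in knockout 1, against 5.94, 6.05 and 5.95 FPKM in the controls. Both knockouts were below a tight control range of 5.98 ± 0.0598 FPKM (SD, n = 3), and the log2 difference of -0.36 (SE 0.0877) came short of the threshold (adjusted p = 0.0720 by limma), though it passed with knockout 1 alone (-0.47, adjusted p = 0.0328 by limma). Ccl27a, the skin chemokine for Ccr10, had 10.04 FPKM in knockout 0 and 9.96 FPKM in knockout 1, against 11.4, 13.4 and 10.1 FPKM in the controls. As listed, both were just under the lowest control (adjusted p = 0.353 by limma), a placement that depends on the scaling. Near-identical copies, among them Ccl27b at 0 in every library, also make its values uncertain. Ccl28, the mucosal ligand of Ccr10 and Ccr3, had 9.48 FPKM in knockout 0 and 1.30 FPKM in knockout 1, against 3.37, 0.454 and 1.75 FPKM in the controls. Its controls spread widely (1.86 ± 1.46 FPKM, SD, n = 3), so only knockout 0 was outside them, and even knockout 0 alone did not pass (adjusted p = 0.0911 by limma).

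Ccl20, the Ccr6 ligand of inflamed epithelium, had 1.40 FPKM in knockout 0 and 0.0759 FPKM in knockout 1, against 0.0450, 0.0248 and 0.0273 FPKM in the controls. At 43.3-fold in knockout 0 and 2.34-fold in knockout 1 its ratios to the control mean were large, on control levels of a few hundredths of an FPKM. Cxcl17, a mucosal chemokine, had 1.19 FPKM in knockout 0 and 0.0812 FPKM in knockout 1, against 0.0577, 0.141 and 0.132 FPKM in the controls. For Cxcl17 knockout 1 was inside the control range.

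Receptors of macrophages and monocytes lay above the controls in both knockout libraries. Cx3cr1, the fractalkine receptor of resident macrophages and patrolling monocytes, had 6.63 FPKM in knockout 0 and 3.19 FPKM in knockout 1, against 1.62, 1.65 and 1.62 FPKM in control 0, 1 and 2. The groups did not overlap and the controls hardly varied, at 1.63 ± 0.0156 FPKM (SD, n = 3). With both libraries the log2 difference was 1.10 (SE 0.252, adjusted p = 0.0643 by limma). Rescaled to TPM it passed (adjusted p = 0.0478 by limma), as it did with knockout 0 alone (1.54, adjusted p = 0.00131) and knockout 1 alone (0.67, adjusted p = 0.0208) by limma.

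Ccr2, the receptor of inflammatory monocytes, had 7.29 FPKM in knockout 0 and 1.76 FPKM in knockout 1, against 1.25, 0.863 and 1.02 FPKM in the controls. Both knockouts were above every control, and it did not pass with both libraries (log2 difference 1.23, SE 0.454, adjusted p = 0.152 by limma). Ccr1, another myeloid receptor, had 2.03 FPKM in knockout 0 and 0.831 FPKM in knockout 1, against 0.150, 0.227 and 0.214 FPKM in the controls. Its mean was too low for the test, and the ratios to the control mean were 10.3 in knockout 0 and 4.21 in knockout 1. Cxcr3, on activated T and NK cells, had 1.40 FPKM in knockout 0 and 0.745 FPKM in knockout 1, against 0.513, 0.386 and 0.402 FPKM in the controls. Cxcr6, the Cxcl16 receptor of tissue lymphocytes, had 1.31 FPKM in knockout 0 and 0.818 FPKM in knockout 1, against 0.610, 0.571 and 0.460 FPKM in the controls. In both lymphocyte receptors the groups did not overlap, at folds of 3.23 and 1.72 for Cxcr3 and 2.39 and 1.495 for Cxcr6 in knockout 0 and 1.

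The order of the receptors by level differed between libraries. Cxcr4 came first and Cx3cr1 second in each control, and Ccr2 came first in knockout 0 and Cx3cr1 in knockout 1. Ccr2 held 24.2% of all receptor FPKM in knockout 0 and 12.6% in knockout 1, against 9.38% to 12.4% in the controls. Cxcr4 held 11.6% in knockout 0 and 19.6% in knockout 1, against 24.7% to 31.9% in the controls. In the controls Cxcr2 and Ccr2 overlapped, and their order there is within the spread.

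**Figure D4:**
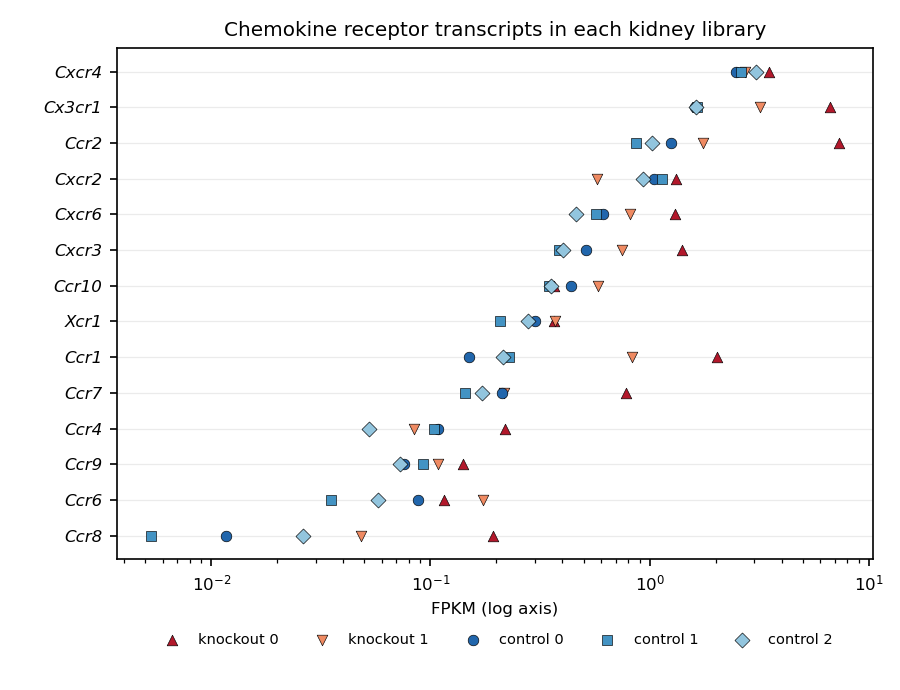
FPKM (log axis) of the receptors that reached 0.1 FPKM in any library, 1 left out, ordered by control mean, one symbol per library. Knockout 0 is to the right of all controls for most receptors, with Ccr2 (7.29 FPKM) and Cx3cr1 (6.63 FPKM) highest, and Cxcr2 shows knockout 1 (0.578 FPKM) left of the controls.

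The 22 members that never reached 1 FPKM had a highest value of 0.781 FPKM, that of Ccr7 in knockout 0. Of these, 4 (Ccl21b, Ccl21c, Ccl26 and Ccl27b) were listed at 0 in every library. Of the 18 with a value in any library, knockout 0 was above every control for 14 (37.1% of the 6447 rows equally low and above 0 in any library) and below for 0 (26%). Knockout 1 was above for 10 (37.9% of such rows) and below for 3, Ccl1, Cxcl11 and Ccr1l1 (18.8%). The highest ratio to the control mean in knockout 1 among them was that of Cxcl13, at 5.22. Zeros carry little information here, because the proximal tubule genes Lrp2 and Slc34a1 were also listed at 0 in all 5 libraries, and the loop gene Umod was listed at 0 in the 3 controls only.

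Many of the genes sit in runs of neighbours, and counts for 3 runs of ligand genes are given beside the shares over all rows of the table, 29.7% above every control in knockout 0 and 32% in knockout 1. In the run of 11 CC ligand genes at chr11:82035571-83664683, knockout 0 was above every control for 11 and knockout 1 for 10. Among the 5 ELR CXC genes matched by the symbol rule at chr5:90759360-90905938, knockout 0 was above for 4 and knockout 1 for 2. Among the 3 Cxcr3 ligand genes at chr5:92321347-92365485 knockout 0 was above for 3 and knockout 1 for 2. Positions are from GENCODE M21 on mm10.

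Lists of genes that act around chemokines were read beside the members. Among 14 tested atypical receptors and chemokine-like genes none was called with both libraries, the nearest being Cmklr1, a chemerin receptor, and Rarres2, which encodes chemerin (adjusted p = 0.0885 and 0.0997 by limma). Ackr3, the atypical receptor that scavenges Cxcl12, had 55.8 FPKM in knockout 0 and 41.7 FPKM in knockout 1, against 35.7, 35.0 and 29.7 FPKM in the controls, and did not pass (adjusted p = 0.101 by limma). Among 24 tested genes of signalling below the receptors none was called, with Arrb2, Coro1a and Gng5 nearest (adjusted p = 0.108 to 0.124 by limma). Of 19 tested genes that cut chemokines or induce them, 1 rose, the cytokine gene Il1b, and none fell, beside 2.73% and 3.62% of all rows tested. That gene stayed under 1 FPKM in every control and entered the fit only through its knockout values. Il1b had 2.30 FPKM in knockout 0 and 1.56 FPKM in knockout 1, against 0.666, 0.533 and 0.663 FPKM in the controls, with no overlap (log2 difference 0.85, SE 0.149, adjusted p = 0.0404 by limma).

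Leukocyte markers stood in the same order as most chemokines. The 17 macrophage markers summed to 588 FPKM in knockout 0 and 201 FPKM in knockout 1, against 139 to 149 FPKM in the controls, and of 16 tested, 14 were higher in knockout 0 alone, 6 in knockout 1 alone and 0 with both libraries (limma). The 5 markers shared by all leukocytes summed to 111 FPKM in knockout 0 and 49.0 FPKM in knockout 1, against 30.7 to 33.3 FPKM in the controls. Ptprc, which encodes the pan-leukocyte antigen CD45, had 7.37 FPKM in knockout 0 and 3.76 FPKM in knockout 1, against 2.60, 2.42 and 2.32 FPKM in the controls. Dendritic cell markers summed to 1702 FPKM in knockout 0 and 437 FPKM in knockout 1, against 362 to 402 FPKM in the controls. Nearly all of that sum came from Cd74, the MHC class II invariant chain, and the MHC class II genes H2-Aa and H2-Ab1 (993, 328 and 367 FPKM in knockout 0). Knockout 1 was thus above every control for each of these sums, by far less than knockout 0. Every gene of the dendritic cell list was above every control in knockout 0. In knockout 1 Cd74, H2-Aa, H2-Ab1, Itgax, Siglech and Zbtb46 were above every control. There Cd209a, Clec9a, Clec10a and Flt3 were inside the control range, and Itgae was below it. T cell markers summed to 14.4 FPKM in knockout 0 and 7.27 FPKM in knockout 1, against 4.01 to 5.04 FPKM in the controls. NK cell markers summed to 6.30 FPKM in knockout 0 and 2.37 FPKM in knockout 1, against 1.96 to 2.26 FPKM in the controls, and B cell markers to 3.07 and 2.69 FPKM in knockout 0 and 1, against 2.25 to 2.58 FPKM in the controls. Apart from zeros among neutrophil markers, no leukocyte marker of these lists was at 0 in any library. Monocyte markers summed to 132 FPKM in knockout 0 and 71.6 FPKM in knockout 1, against 62.3 to 90.0 FPKM in the controls. Ace, which other kidney cells express too, gave 61.3 and 42.8 FPKM of these sums in knockout 0 and 1, against 38.8 to 71.3 FPKM in the controls. Plac8, Ear2, Chil3, F13a1 and Nr4a1 were above every control in both knockout libraries. Ly6c2 was inside the control range in both, at 1.76 and 1.89 FPKM in knockout 0 and 1, against 1.55 to 1.91 FPKM in the controls. Only 1 gene of that list of 7, Nr4a1, an immediate early gene also high in patrolling monocytes, was called higher with both libraries (adjusted p = 0.0461 by limma), and the part of leukocyte number in the chemokine results was not tested.

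Markers of other cell types did not share a direction. Endothelial markers summed to 194 FPKM in knockout 0 and 202 FPKM in knockout 1, against 185 to 190 FPKM in the controls. Fibroblast and pericyte markers summed to 184 FPKM in knockout 0 and 103 FPKM in knockout 1, against 67.2 to 99.0 FPKM in the controls, with 1 of 8 called, the pericyte gene Cspg4. In knockout 0 Pdgfra was below every control, Lum was inside the control range and the rest of that list was above every control. In knockout 1 Acta2, Col1a1 and Col3a1 were inside the control range and the rest were above every control. Tubule injury genes summed to 868 FPKM in knockout 0 and 238 FPKM in knockout 1, against 261 to 277 FPKM in the controls, and of 10 tested, C3, Cp and Cdkn1a rose with both libraries (adjusted p = 0.0362, 0.0372 and 0.0471 by limma). In knockout 1 the injury genes as a sum were below the controls, although these 3 and Krt20, Sox9 and Vcam1 were each above every control. Clu, Krt8 and Havcr1 were below every control there, and Krt18 and Lcn2 were inside the control range. Clu, a large item of the sum, had 325 FPKM in knockout 0 and 86.3 FPKM in knockout 1, against 123 to 150 FPKM in the controls. Markers of the tissues around the kidney were lower, with urothelial genes at 4.56 FPKM in knockout 0 and 10.4 FPKM in knockout 1, against 15.6 to 23.2 FPKM in the controls, and adipose genes at 0.0842 FPKM in knockout 0 and 0.771 FPKM in knockout 1, against 1.87 to 4.14 FPKM in the controls. Proximal tubule markers summed to 1137 FPKM in knockout 0 and 1272 FPKM in knockout 1, against 1293 to 1397 FPKM in the controls, so the labelled tissue's own markers were abundant in every library, apart from the zeros named above. Genes of lymph node and lymphatic vessels, where Ccl19 and Ccl21a are usually high, summed to 23.7 FPKM in knockout 0 and 13.04 FPKM in knockout 1, against 6.92 to 7.22 FPKM in the controls. Pdpn, which is not confined to lymphatic vessels, gave 22.1 and 9.94 FPKM of these sums in knockout 0 and 1, against 5.05 to 5.73 FPKM in the controls. Lyve1 and Madcam1 were also above every control in both knockout libraries, Prox1 was above in knockout 1 and below in knockout 0, Cr2 was below in both, and Glycam1 was listed at 0 in both and in control 1. The part of these tissues in the Ccl19 result was not tested.

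**Figure D5:**
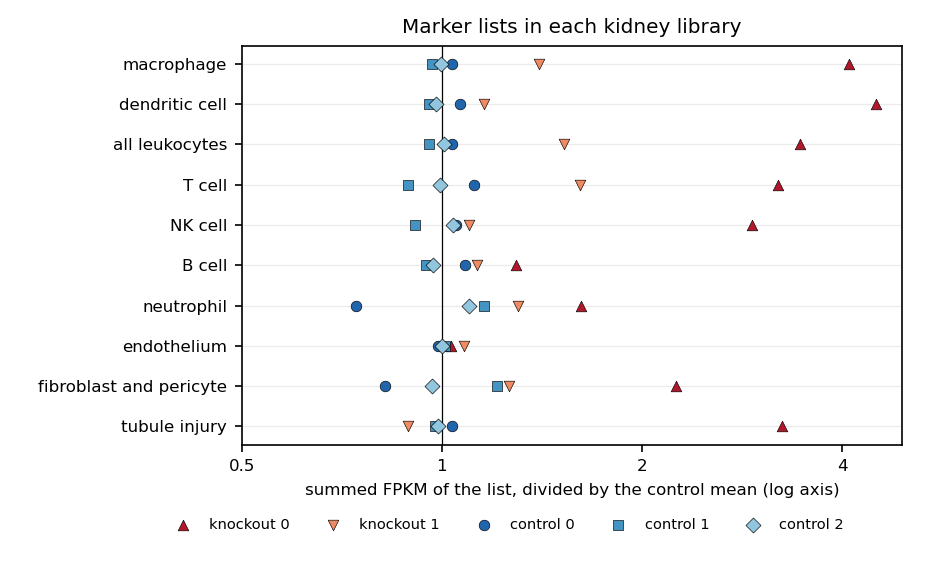
Summed FPKM of each marker list divided by the mean of the 3 controls (log axis), one symbol per library. Knockout 0 is at 4.09 for macrophage and 3.46 for all-leukocyte markers, knockout 1 at 1.40 and 1.53, and both are near 1 for endothelium (1.03 and 1.08).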

How the data were processed

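Whole-kidney RNA was sequenced in 5 libraries, and the groups were taken from the genotype labels. Per the labels' protocols, RNA was extracted with TRIzol and libraries were made with an Illumina mRNA kit. The authors deposited a single table of FPKM, a column for each library. Both bcl2fastq and mm10 are named, per the submitters' processing notes. Not given in the sources used here are the aligner, the annotation, the strand setting, the counting program and the depth. The smallest steps between the FPKM of low genes put the relative depth at 0.45 and 1.0 in knockout 0 and 1, and at 0.75, 0.83 and 0.51 in control 0, 1 and 2, so low values of knockout 0 and control 2 rest on the fewest fragments.

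Since FPKM are not counts, differences were tested on log2(FPKM + 1) by the two-sided moderated test of limma 3.58.1 (R 4.3.3; a trend fitted to the variances) on all 12640 rows with a mean of at least 1 FPKM, with Benjamini-Hochberg adjustment over them. For 2 against 3 libraries the smallest p of an exact permutation test is 0.1. Alternatives were another pseudocount, no filter, 3 other scalings, rows listed at 0 left out, no variance trend, a replicate block, each library left out and a looser threshold. The unfiltered fits of single knockout libraries and with a pseudocount of 0.1 were added after seeing the data.

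The members and the companion lists were chosen with earlier results of these data known. The rule for named genes took every member with a mean of at least 1 FPKM or at least 1 FPKM in any library, and of the lists around chemokines the genes that passed or else the 3 with the smallest adjusted p; of marker lists, genes that passed and a few others, chosen after their values were seen, are named. Of the receptors, 1 is counted but not reported here. Further low members are named after their values were seen. Positions, exon overlaps and near copies (at least 95% identity over 200 bases, BLAST+ 2.17.0) came from GENCODE M21. Python 3.11.15, numpy 2.4.6, pandas 2.3.3 and matplotlib 3.10.9 were used for tables and plots.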

Additional observations from a re-analysis of the deposited data

How the results depend on the processing

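Of the 25 tested members, 22 kept the sign of their log2 difference under all 16 alternatives. The exceptions were Ccl28 (-0.18 without knockout 0 and 2.01 without knockout 1), Cx3cl1 (-0.0819 and 0.98) and Cxcr2 (-0.37 and 0.19), each the same with and without the filter. The count of members called higher, 2 in the fit as reported, was 0 with no filter, 1 with quantile normalization (Ccl8), 1 with no variance trend (Ccl8), 4 at an adjusted p under 0.1, and 0 to 18 when a library was left out, being 18 without knockout 1 and 0 without any 1 control. With no filter and only knockout 1 it was 0, with no filter and only knockout 0 it was 27, and with no filter and a pseudocount of 0.1 it was 0. The count called lower, 0 as reported, was 0 to 1 when a library was left out, 1 with no filter and only knockout 0, and 1 at an adjusted p under 0.1. Over all genes, 802 rows were called as reported, against 247 with no filter, 2044 at an adjusted p under 0.1, 36 to 2599 when a library was left out, 510 and 2191 with no filter and only knockout 1 or only knockout 0, and 201 with no filter and a pseudocount of 0.1. A replicate block in the fit left 0 members and 28 rows called. Deviations from the group means correlated at 0.0863 between the libraries of number 0 and at 0.00236 between those of number 1. The deviations of 2 knockout libraries from their own mean mirror each other. These correlations are therefore not separate checks and cannot decide whether the libraries were paired. Rescaling to TPM turned the split of calls over all rows to 454 higher and 266 lower, against 345 higher and 457 lower as reported, and exchanged Ccl19 for Cx3cr1 among the members called. Leaving out a control removes degrees of freedom from an already small design, and the causes of the other changes were not tested. The 2 knockout libraries differed by 22.9-fold in Cxcl1, and members that did not pass are not shown to be equal between the groups.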
